A study of Homo sapiens with 8 samples.

Results

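A set of 35 well known long non-coding RNA genes, 14 of them hosts of small nucleolar RNAs (snoRNAs), was examined in SRA01/04 cells, an established human lens epithelial line immortalised with a viral large T antigen. The rule for membership is a list of names that uses no measured value, although the list was drawn up with earlier results of these data known. The genes made up 36 of the 58735 gene rows of the count table, since LINC-PINT has 2 gene identifiers. Of these rows, 33 had enough counts to be tested, and H19, KCNQ1OT1 and HOTTIP did not.

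The study compared cells of the line carrying a control short hairpin RNA (shControl, genotype labelled WT) with cells carrying a hairpin against SMURF1 (shSmurf1, genotype labelled Smurf1 knockdown), with 4 RNA-seq libraries in each group. SMURF1 encodes a HECT-domain enzyme that attaches ubiquitin to SMADs and to receptors of transforming growth factor β. All 8 libraries came from cells exposed for 48 h to 20 ng/ml TGF-β2, and cells without TGF-β2 are not part of the comparison. The labels name no other hairpin against SMURF1 and no rescue, and they do not say whether the biological replicates of a group were separate cultures. The p-values therefore reflect library-to-library spread, which may be technical. SMURF1 itself stood at 88.9 ± 3.17 CPM (counts per 1000000 of the scaled library size) in shControl and 51.1 ± 0.491 CPM in shSmurf1 (mean ± SD, n = 4 each).

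Long non-coding RNAs are transcripts that carry no long open reading frame and act, where a function is known, as scaffolds, decoys or guides for proteins, or by being transcribed. A snoRNA host gene is transcribed and spliced like a messenger RNA gene, and its snoRNAs are cut out of the introns. Box C/D snoRNAs guide 2′-O-methylation of ribosomal RNA and H/ACA snoRNAs guide its pseudouridylation, while the spliced exons are often translated briefly and removed by nonsense-mediated decay. In lens epithelium, members of the set such as MALAT1, H19 and KCNQ1OT1 have been studied in cataract.

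Library totals ranged from 14688651 to 17030394 counts, and the listed genes together took 0.223% to 0.239% of each library. The shSmurf1 replicate 3 library stood apart. Its root mean square log2 distance to the other libraries of its group was 0.295, against 0.210 to 0.232 for the other 7 libraries. All 13 mitochondrially encoded mRNAs passed the test as higher in shSmurf1, with a summed level of 33790 to 36910 CPM in shControl and 42120 to 52430 CPM in shSmurf1, and their part in the results below was not tested. Of 12 lens epithelium markers, 4 could be tested: PAX6 (33.3 CPM in shControl), SIX3 (16.2 CPM), CDH2 (328 CPM) and GJA1 (80.0 CPM), while FOXE3, PITX3, MAF, SOX2, CRYAA and CDH1 were at 0.125 CPM or less in both groups. The summed level of the 12 markers was 454 to 463 CPM in shControl and 366 to 412 CPM in shSmurf1. The 11 lens fibre markers summed to 6.67 to 9.27 CPM in shControl and 6.44 to 8.13 CPM in shSmurf1. Of these markers 3 could be tested and 0 passed, while CRYBB1, LIM2 and DNASE2B had no counts at all. The leukocyte marker CD3E also had no counts, while CD14 was 6.76 CPM in shControl and 13.1 CPM in shSmurf1. The 4 endothelial markers summed to 2.21 to 3.46 CPM in shControl and 0.986 to 3.01 CPM in shSmurf1, and the 8 fibroblast markers to 2461 to 2684 CPM and 1938 to 2654 CPM. Of 7 fibroblast markers tested, 3 were higher (COL3A1, PDGFRB and LUM) and 1 lower (COL1A2). The 4 simple epithelium markers summed to 1379 to 1449 CPM in shControl and 1150 to 1290 CPM in shSmurf1, with KRT19 lower and KRT8 and KRT18 not past the test. The part of these marker shifts in the results below was not tested. RNAs without a poly(A) tail, such as most histone mRNAs, summed to 48.5 to 59.1 CPM in shControl and 47.7 to 64.4 CPM in shSmurf1. In RNA from whole cultures, fewer cells that express a gene and less of its RNA per cell cannot be told apart.

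Of the 33 rows tested, 3 rose in shSmurf1 (DANCR, SNHG16 and TUG1) and 3 fell (GAS5, SNHG6 and SNHG12), by edgeR's quasi-likelihood test with Benjamini-Hochberg adjustment over 15647 genes and a threshold of 0.05. That is 18.2% of the rows, against a background of 22.5% of all genes tested (10.3% higher and 12.2% lower). The libraries of the groups did not overlap in 6 rows, against a background of 23.7% of all genes tested. The median log2 fold change of the 33 rows was −0.07 and that of all genes 0.01, the median size was 0.13 against 0.15, and 20 of the 33 rows lay within 0.15 of no change. Among all 1779 long non-coding gene rows tested, 196 passed (11.0%). In the main test the share of listed rows that passed was below the background. This depends on the processing: it was 36.4% against 28.1% of all genes with the GC-content trend of every library removed, and 36.4% against 33.7% without shSmurf1 replicate 3. In the main test, 5 of the 14 snoRNA hosts passed (2 higher, 3 lower), against 1 of the other 19 rows. The difference between those classes was not tested.

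**Figure D1:**
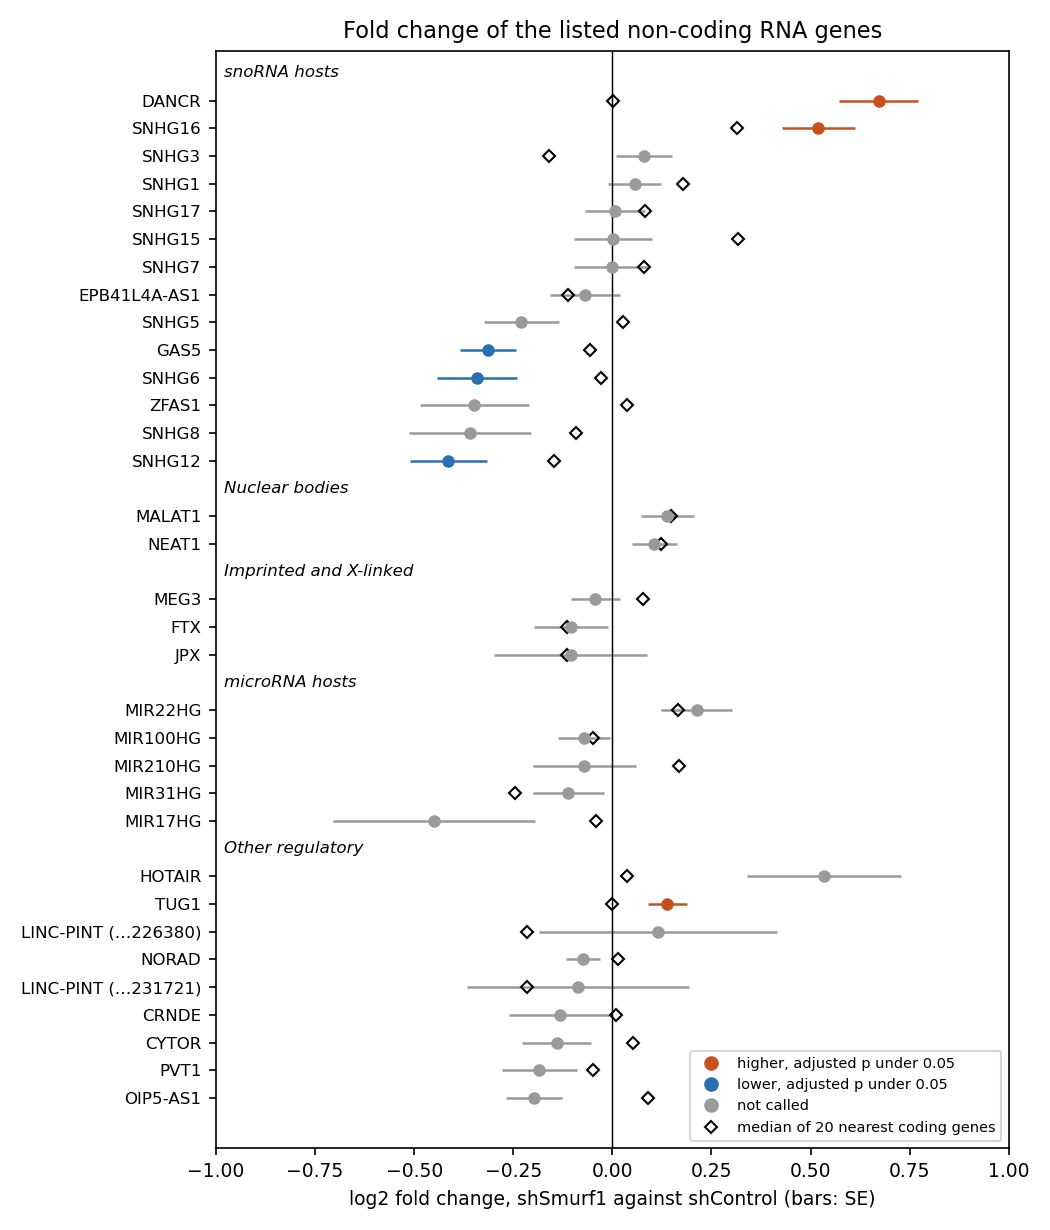
Log2 fold change of each tested gene in shSmurf1 against shControl (filled circles, bars are standard errors), grouped by role, with the median of the 20 nearest tested protein-coding genes as open diamonds. DANCR (0.67) and SNHG16 (0.52) lie farthest to the right among genes past the test, SNHG12 (−0.41) lies farthest to the left among them, and SNHG16 and SNHG15 have neighbours with medians of 0.31 and 0.32.

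The snoRNA hosts moved in both directions. DANCR, first named for holding back the differentiation of epidermal progenitor cells, is the host of the H/ACA snoRNA SNORA26 and lies on GRCh38 chromosome 4 at 52712404 to 52720351, plus strand. Its level in shControl replicates 1 to 4 was 14.9, 13.9, 13.5 and 14.4 CPM, and in shSmurf1 replicates 1 to 4 it was 24.1, 18.2, 23.7 and 24.4 CPM. Every shSmurf1 library lay above every shControl library, and replicate 2 was the lowest of its group. The mean rose from 14.2 ± 0.601 to 22.6 ± 2.94 CPM (SD, n = 4 each), a log2 fold change of 0.67 ± 0.10 (SE; edgeR adjusted p = 5.59e-05). These values rest on 207 to 410 counts a library. Among the 20 tested protein-coding genes nearest to it on the chromosome, the median log2 fold change was 0.00, with 0 higher and 2 lower. Of all genes tested, 10.3% passed as higher and 12.2% as lower.

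SNHG16 holds the box C/D snoRNAs SNORD1A, SNORD1B and SNORD1C and lies on chromosome 17 at 76557766 to 76565348, plus strand. It measured 29.1, 29.8, 23.2 and 25.0 CPM in shControl replicates 1 to 4 and 37.8, 37.6, 44.1 and 34.1 CPM in shSmurf1 replicates 1 to 4. The groups did not overlap. The mean rose from 26.8 ± 3.18 to 38.4 ± 4.17 CPM (SD, n = 4 each; log2 fold change 0.52 ± 0.093 SE, edgeR adjusted p = 0.000358). Its neighbours on the chromosome were higher as well: 15 of the 20 nearest tested coding genes passed as higher and 0 as lower, with a median log2 fold change of 0.31, and SNHG16 lay 0.21 above that median. The background over all genes tested was 10.3% higher and 12.2% lower.

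SNHG12, the host of SNORD99, SNORA61, SNORA44 and SNORA16A, lies on chromosome 1 at 28578538 to 28583132, minus strand. Its shControl libraries measured 18.8, 18.4, 17.4 and 17.5 CPM, and its shSmurf1 libraries 14.8, 14.8, 12.8 and 11.7 CPM, in the order of replicates 1 to 4. The groups did not overlap and the controls lay close together. The mean fell from 18.0 ± 0.698 to 13.5 ± 1.54 CPM (SD, n = 4 each; log2 fold change −0.41 ± 0.098 SE, edgeR adjusted p = 0.00417). SNHG3, the host of the SNORA73 pair, lies nearby on the same arm of chromosome 1 (28505980 to 28510892, plus strand) and did not pass, with 40.3 ± 1.04 CPM in shControl and 42.7 ± 3.81 CPM in shSmurf1 (log2 fold change 0.08). The median over the 20 coding genes nearest to SNHG12 was −0.15 and over those nearest to SNHG3 −0.16, and 7 of each 20 passed as lower and 2 as higher. These sets overlap, since SNHG12 and SNHG3 lie close together, so they are not separate observations. The background over all genes tested was 12.2% lower and 10.3% higher.

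GAS5, the growth arrest-specific transcript that accumulates when translation slows and that can bind the glucocorticoid receptor as a decoy, lies on chromosome 1 at 173863900 to 173868882, minus strand. It measured 85.2, 80.5, 77.2 and 79.2 CPM in shControl replicates 1 to 4 and 67.7, 56.2, 72.9 and 62.3 CPM in shSmurf1 replicates 1 to 4. Every shSmurf1 library was below every control. The mean fell from 80.5 ± 3.42 to 64.8 ± 7.19 CPM (SD, n = 4 each; log2 fold change −0.31 ± 0.070 SE, edgeR adjusted p = 0.00277), to 80.4% of control. The 20 nearest coding genes had a median of −0.06.

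SNHG6, the host of SNORD87 on chromosome 8, measured 46.8, 33.4, 35.4 and 39.2 CPM in shControl replicates 1 to 4 and 33.8, 26.1, 29.4 and 32.8 CPM in shSmurf1 replicates 1 to 4. The groups overlapped, since shSmurf1 replicate 1 lay just above shControl replicate 2, and shControl replicate 1 was the highest library. The mean fell from 38.7 ± 5.94 to 30.6 ± 3.49 CPM (SD, n = 4 each; log2 fold change −0.34 ± 0.10 SE, edgeR adjusted p = 0.0183). The call was lost without shControl replicate 1 (log2 fold change −0.24, edgeR adjusted p = 0.0995) and without shSmurf1 replicate 2 (−0.28, edgeR adjusted p = 0.0735). The antisense gene MCMDC2 shares 365 bases with SNHG6, 29.3% of its exons, and was at 0.677 CPM. That value may leave out reads in the shared bases, and so may that of SNHG6.

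**Figure D2:**
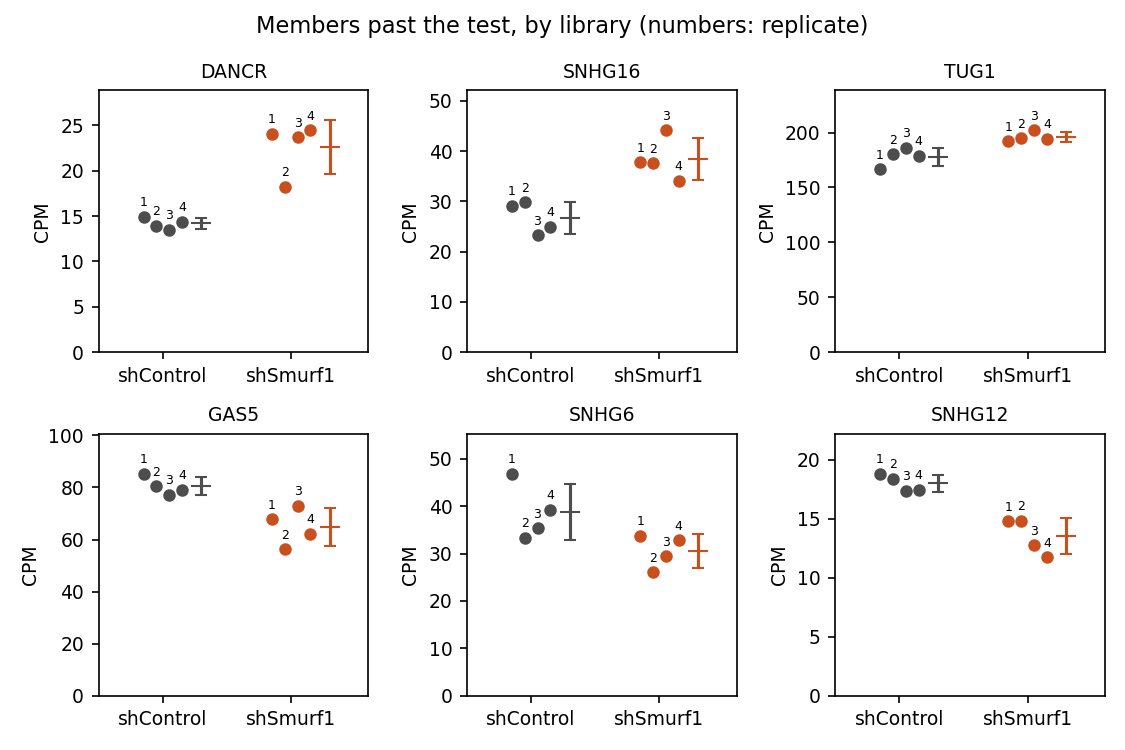
Level in CPM (axis from 0) of the 6 listed genes that passed the test, with 1 point for each library labelled by its replicate number, and a cross bar with the mean and SD of 4 libraries. The groups are apart in DANCR, SNHG16, TUG1, GAS5 and SNHG12, and overlap in SNHG6, where shControl reaches down to 33.4 CPM and shSmurf1 up to 33.8 CPM.

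The other 9 snoRNA hosts did not pass, with log2 fold changes from −0.36 to 0.08. ZFAS1, which starts next to the promoter of ZNFX1 and holds the SNORD12 family, measured 25.8, 27.0, 30.5 and 33.3 CPM in shControl replicates 1 to 4 and 23.4, 24.8, 28.7 and 14.9 CPM in shSmurf1 replicates 1 to 4. The groups overlapped, and shSmurf1 replicate 4 was far below the others (log2 fold change −0.35 ± 0.14 SE, edgeR adjusted p = 0.0761). It was −0.19 without shSmurf1 replicate 4 (edgeR adjusted p = 0.231) and −0.48 without shSmurf1 replicate 3, where it passed (edgeR adjusted p = 0.00164). SNHG8, the host of SNORA24, stood at 7.30 ± 1.0 CPM in shControl and 5.69 ± 1.03 CPM in shSmurf1 (log2 fold change −0.36 ± 0.15 SE, edgeR adjusted p = 0.105), and SNHG5, the host of the SNORD50 pair, at 42.2 ± 6.15 and 36.0 ± 3.81 CPM (−0.23 ± 0.095 SE, edgeR adjusted p = 0.0897). SNHG8 did pass without shSmurf1 replicate 1 (edgeR adjusted p = 0.0445), and SNHG5 without shSmurf1 replicate 3 (edgeR adjusted p = 0.0239). With 1 library left out the log2 fold change of SNHG8 ranged from −0.48 to −0.28. That of SNHG5 ranged from −0.29 to −0.13, the smallest without shControl replicate 1 (edgeR adjusted p = 0.369), its highest library at 51.1 CPM.

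Values close to no change were found for SNHG1, which holds 7 of the snoRNAs counted here (log2 fold change 0.06), SNHG17, the host of the SNORA71 family (0.01), SNHG15, the host of SNORA9 (0.00), SNHG7, the host of the SNORA17 pair (0.00), and EPB41L4A-AS1, the host of SNORA13 (−0.07). In SNHG15 the mean was 17.01 CPM in shControl and 17.02 CPM in shSmurf1, with a log2 fold change of 0.00 ± 0.098 (SE), although 17 of its 20 nearest coding genes passed as higher and their median was 0.32. The background was 10.3% of all genes tested as higher. In SNHG7, 1 library differed from the rest. Its shControl libraries measured 57.4 to 64.5 CPM and shSmurf1 replicates 1, 2 and 4 measured 62.4, 64.0 and 68.9 CPM, but shSmurf1 replicate 3 measured 44.4 CPM. Without that library its log2 fold change was 0.12 (edgeR adjusted p = 0.0992), and after removal of the GC-content trend of every library it was −0.17 (edgeR adjusted p = 0.0189), so its direction depends on the processing.

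The snoRNAs inside these hosts show what the counts do and do not hold. The annotation places no snoRNA gene inside GAS5, and it places 1 inside the microRNA host MIR31HG. In all it places 36 snoRNA genes inside 14 of the listed rows. The 24 that overlap a host exon all had a count of 0, and the 12 that lie wholly in introns had 409 counts in all over 8 libraries. The host values come from reads assigned to host exons in poly(A)-selected RNA, and the mature snoRNAs were not measured. SNORD1C of SNHG16, SNORA61, SNORA44 and SNORA16A of SNHG12, and SNORD87 of SNHG6 are not printed. The sequences of the other snoRNAs from hosts past the test are shown because they are known products of those genes. They come from GENCODE release 29 on GRCh38, 5′ to 3′, and capitals mark an exact C box (TGATGA) within the first 20 bases, a D box (CTGA) within the last 20, or the ACA that stands 3 bases before the 3′ end of an H/ACA snoRNA. SNORA26 lies in DANCR at chr4:52713249-52713370 (plus strand), SNORD1B in SNHG16 at chr17:76561109-76561192 (plus strand), SNORD1A at chr17:76561634-76561705 (plus strand), and SNORD99 in SNHG12 at chr1:28578749-28578822 (minus strand).
SNORA26: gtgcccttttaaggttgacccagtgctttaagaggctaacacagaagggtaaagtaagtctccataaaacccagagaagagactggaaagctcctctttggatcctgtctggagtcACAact
SNORD1B: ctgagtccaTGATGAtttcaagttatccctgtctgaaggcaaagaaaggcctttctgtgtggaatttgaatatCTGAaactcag
SNORD1A: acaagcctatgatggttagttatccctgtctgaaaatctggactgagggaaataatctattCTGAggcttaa
SNORD99: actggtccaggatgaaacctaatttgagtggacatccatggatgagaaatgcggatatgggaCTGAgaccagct

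SNORD1A and SNORD99 have a D box but no exact TGATGA near the 5′ end, SNORD1B has both boxes, and SNORA26 has the ACA of its class. Over the 8 libraries together, SNORA26 had 28 counts, SNORD1B 17 and SNORD99 15, and all of these lie in introns. SNORD1A had 0, like every snoRNA gene here that overlaps a host exon, so its 0 cannot be read as a lower level.

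The start sites of snoRNA hosts were read next, since many hosts are known to begin with a pyrimidine run like that of ribosomal protein mRNAs, a 5′ terminal oligopyrimidine (TOP) sequence. In RefSeq (GRCh38.p14), windows from 10 bases before to 20 bases from the start site were read for 12 of the 14 hosts, and 29 of the 35 genes had an entry. A run of C followed by at least 4 pyrimidines (C or T), sought on the strand of the gene only, occurred in 8 of these 12 host windows (66.7%) and in 38.4% of 35116 RefSeq windows. The windows of DANCR (chr4:52712384-52712413, plus strand), SNHG16 (chr17:76557754-76557783, plus strand), SNHG12 (chr1:28581854-28581883, minus strand) and GAS5 (chr1:173869026-173869055, minus strand) are printed with runs in capitals because these hosts moved in opposite directions.
DANCR: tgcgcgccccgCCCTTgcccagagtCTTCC
SNHG16: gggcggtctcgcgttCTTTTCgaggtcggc
SNHG12: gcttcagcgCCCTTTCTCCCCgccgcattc
GAS5: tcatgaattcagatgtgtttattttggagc

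Runs were present in DANCR and SNHG16, which rose, and in SNHG12, which fell by 0.41 on the log2 scale. The longest, of 12 bases, was in SNHG12. The GAS5 window, which lies wholly upstream of the gene model used for the counts, holds none. The SNHG12 window lies inside its gene model, downstream of the annotated start. A match is a feature of these letters and does not show a start site in use in these cells.

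Related genes were read from lists. Of 14 tested genes among other snoRNA hosts, nearly all non-coding, 3 rose and 2 fell, with a median log2 fold change of 0.20. That is 35.7% of them, against a background of 22.5% of all genes tested. DESeq2 called 5 of them and limma-voom 4. SNHG19 rose from 2.34 ± 0.860 to 6.28 ± 1.90 CPM (SD, n = 4 each; log2 fold change 1.42 ± 0.25 SE, edgeR adjusted p = 0.000306), SNHG20 by 0.62 and SNHG4 by 0.50, whereas MEG8 fell by 0.54 and C6orf48, now called SNHG32, by 0.44. Of 50 tested protein-coding snoRNA hosts, 2 rose (CCT6A, a chaperonin subunit, 0.30, and TNPO2, an importin, 0.21) and 16 fell, with a median of −0.10. Falls there included RPL5 (−0.38), a ribosomal protein, and RABGGTB (−0.31), a subunit of an enzyme that attaches lipid to Rab proteins. The share called was 36.0% in the coding hosts, against the background of 22.5%.

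Of 20 proteins that build snoRNA particles, 20.0% passed, against the background of 22.5%: 1 rose (SHQ1, an H/ACA assembly factor, log2 fold change 0.39) and 3 fell (ZNHIT6, a box C/D assembly factor, −0.55, FBL, the 2′-O-methyltransferase fibrillarin, −0.16, and DKC1, the pseudouridine synthase dyskerin, −0.15). Of 21 factors of nonsense-mediated decay, 33.3% passed against the same background: 3 rose (EIF4A3 by 0.33, RBM8A by 0.26 and SMG6 by 0.20) and 4 fell, led by PNRC2 (−0.28), MAGOH (−0.27) and UPF3B (−0.26). EIF4A3, RBM8A and MAGOH are core subunits of the exon junction complex, so its members did not move together.

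The nuclear body transcripts MALAT1 and NEAT1 lie close together on chromosome 11, at 65497688 to 65506516 and 65422774 to 65445540, both on the plus strand. MALAT1, a nuclear speckle RNA, measured 232, 220, 210 and 198 CPM in shControl replicates 1 to 4 and 247, 233, 263 and 204 CPM in shSmurf1 replicates 1 to 4. The groups overlapped, and the log2 fold change of 0.14 ± 0.067 (SE) did not pass (edgeR adjusted p = 0.154). NEAT1, the scaffold of paraspeckles, was 336 ± 14.2 CPM in shControl and 361 ± 30.9 CPM in shSmurf1 (SD, n = 4 each; log2 fold change 0.11 ± 0.057 SE, edgeR adjusted p = 0.203). In poly(A)-selected RNA, forms of MALAT1 or NEAT1 without a poly(A) tail are largely missed, and their share was not measured. The 20 coding genes nearest to each had medians of 0.15 and 0.12, close to the values of MALAT1 and NEAT1 themselves. These sets of neighbours overlap, so the medians are not separate observations. With the GC trend removed both passed, MALAT1 at 0.19 (edgeR adjusted p = 0.00279) and NEAT1 at 0.15 (edgeR adjusted p = 0.0254). MALAT1 also passed without shSmurf1 replicate 4 (edgeR adjusted p = 0.0235) and NEAT1 without shSmurf1 replicate 3 (edgeR adjusted p = 0.0421). MALAT1 was at 0.09 without shSmurf1 replicate 3 (edgeR adjusted p = 0.213) and NEAT1 at 0.06 without shSmurf1 replicate 2 (edgeR adjusted p = 0.532). Of 20 paraspeckle proteins 0 passed in edgeR, 0 in DESeq2 and 0 in limma-voom, against the background of 22.5% of all genes in edgeR. An unadjusted edgeR p under 0.05 was found for 1 of them, and their median log2 fold change was 0.005. Of 20 speckle proteins and MALAT1 partners, 5.0% passed in edgeR against the same background, namely SRSF2, a splicing factor (0.23). In that list 4 had an unadjusted edgeR p under 0.05.

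**Figure D3:**
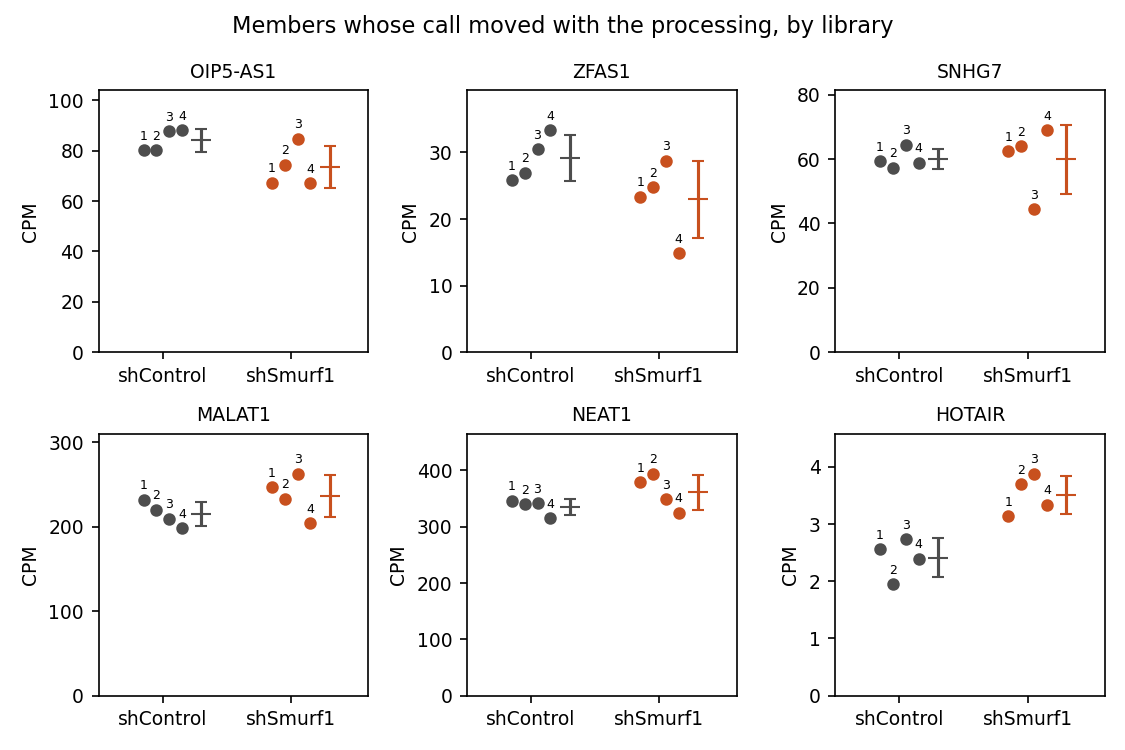
Level in CPM (axis from 0) of 6 listed genes that missed the threshold in the main test and passed under another processing, with 1 point for each library labelled by replicate number and the mean and SD of 4 libraries as a cross bar. Single libraries stand out, shSmurf1 replicate 3 in SNHG7 (44.4 CPM) and replicate 4 in ZFAS1 (14.9 CPM), while in HOTAIR the groups are apart.

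Of the imprinted and X-linked genes, MEG3, the maternally expressed transcript of the DLK1-MEG3 domain, was the most abundant at 262 ± 16.1 CPM in shControl and 254 ± 22.3 CPM in shSmurf1 (SD, n = 4 each; log2 fold change −0.04 ± 0.061 SE). The groups overlapped and 2 of its 20 neighbours passed in each direction, near the background of 10.3% higher and 12.2% lower over all genes. Its paternally expressed partner DLK1 was at 0.0493 CPM or less in both groups. FTX and JPX, both regulators of XIST, each had a log2 fold change of −0.10, with standard errors of 0.093 and 0.19. Their exons share 10580 bases on opposite strands, 78.0% of the exons of JPX. Reads there cannot be told apart without strand and may have been counted for neither gene. H19, the imprinted neighbour of IGF2, had 17 counts in shControl replicate 1, 0 in the other controls and 2, 1, 0 and 2 in shSmurf1 replicates 1 to 4. KCNQ1OT1, the antisense transcript that silences its imprinted domain in cis, had 3 counts, all in shSmurf1 replicate 4. CDKN1C, an imprinted cell cycle inhibitor of the same domain, rose from 4.66 ± 0.695 to 7.10 ± 0.892 CPM (SD, n = 4 each; log2 fold change 0.61 ± 0.15 SE, edgeR adjusted p = 0.00645).

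Of the 5 microRNA hosts 0 passed in edgeR, DESeq2 or limma-voom, against a background of 22.5% of all genes tested in edgeR. So few rows cannot set their share apart from that background. An unadjusted edgeR p under 0.05 was found for 1 of the 5. MIR22HG was the closest, at 18.2 ± 1.27 CPM in shControl and 21.1 ± 1.86 CPM in shSmurf1 (SD, n = 4 each; log2 fold change 0.21 ± 0.090 SE, edgeR adjusted p = 0.0992). Of its 20 neighbours 7 passed as higher, against 10.3% of all genes tested. MIR22HG passed without shSmurf1 replicate 3 (edgeR adjusted p = 0.0384). MIR100HG (72.7 ± 4.50 and 69.2 ± 5.36 CPM, log2 fold change −0.07), MIR31HG (19.4 ± 1.17 and 17.9 ± 1.40 CPM, −0.11) and the hypoxia-linked MIR210HG (7.92 ± 0.783 and 7.54 ± 0.858 CPM, −0.07) overlapped between the groups. MIR17HG, the host of the miR-17-92 cluster and a known target of the transcription factor MYC, had the lowest level and the widest error, with 23 to 50 counts a library and a log2 fold change of −0.45 ± 0.25 (SE; edgeR adjusted p = 0.227). MYC itself fell from 92.2 ± 3.63 to 73.8 ± 3.74 CPM (SD, n = 4 each; log2 fold change −0.32 ± 0.056 SE, edgeR adjusted p = 0.000314).

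The microRNAs these hosts can give rise to are printed from RefSeq (GRCh38.p14), 5′ to 3′, with the seed (bases 2 to 8) in capitals, because the seed sets which messages a microRNA can pair with. The products of MIR17HG fall into shared seeds: miR-17-5p and miR-20a-5p share AAAGUGC, miR-19a-3p and miR-19b-3p share GUGCAAA, and miR-18a-5p and miR-92a-3p have their own.
hsa-miR-17-5p: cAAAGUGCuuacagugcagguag
hsa-miR-20a-5p: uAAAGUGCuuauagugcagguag
hsa-miR-19a-3p: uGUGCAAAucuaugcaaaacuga
hsa-miR-19b-3p: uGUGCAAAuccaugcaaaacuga
hsa-miR-18a-5p: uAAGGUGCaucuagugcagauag
hsa-miR-92a-3p: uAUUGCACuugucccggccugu
hsa-miR-22-3p: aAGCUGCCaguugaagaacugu
hsa-miR-31-5p: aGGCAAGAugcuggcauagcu
hsa-miR-100-5p: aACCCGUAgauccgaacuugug
hsa-miR-125b-5p: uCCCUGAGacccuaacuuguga
hsa-let-7a-5p: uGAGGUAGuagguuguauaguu
hsa-miR-210-3p: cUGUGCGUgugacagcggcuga

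None of these was measured as a mature microRNA. The 27 hairpin genes inside the listed rows had 82 counts in all over 8 libraries, with 0 in each of the 13 that overlap a host exon. Of 17 tested proteins of microRNA processing, 35.3% passed, against 22.5% of all genes. DICER1, which cuts the hairpin, fell from 40.7 ± 1.50 to 29.6 ± 1.10 CPM (SD, n = 4 each; log2 fold change −0.46 ± 0.068 SE), and the Argonautes AGO4 (−0.36) and AGO1 (−0.24) were also lower. AGO2 made 4 falls in all, and 2 rose: TNRC6B (0.18), an Argonaute partner, and DDX5 (0.16), a helicase of the Drosha complex.

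TUG1, needed for photoreceptor development in the retina and reported to bind Polycomb repressive complex 2, was the only other regulatory gene past the main test. It lies on chromosome 22 at 30969245 to 30979395, plus strand, and measured 167, 180, 186 and 179 CPM in shControl replicates 1 to 4 and 192, 195, 202 and 194 CPM in shSmurf1 replicates 1 to 4. The groups did not overlap, with the highest control at 186 CPM and the lowest shSmurf1 library at 192 CPM. The mean rose from 178 ± 8.25 to 196 ± 4.28 CPM (SD, n = 4 each; log2 fold change 0.14 ± 0.049 SE, edgeR adjusted p = 0.0494). This p lies at the threshold, and the call was lost in 9 of 16 other settings, with edgeR adjusted p from 0.0509 to 0.188 in those 9.

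HOTAIR, transcribed from the HOXC cluster and known as a partner of Polycomb repressive complex 2, had 2.57, 1.95, 2.74 and 2.40 CPM in shControl replicates 1 to 4 and 3.14, 3.70, 3.88 and 3.34 CPM in shSmurf1 replicates 1 to 4. The groups did not overlap, yet with 29 to 59 counts a library the log2 fold change of 0.53 ± 0.19 (SE) did not pass (edgeR adjusted p = 0.0540). Its HOXC neighbours HOXC10 and HOXC11 had log2 fold changes of 0.09 and 0.04. HOTTIP, from the HOXA cluster, had 0 to 8 counts a library. Of the Polycomb subunits, EZH2, the methyltransferase, and RBBP4, a histone chaperone, fell by 0.20 and 0.25 on the log2 scale, while EED (−0.19), SUZ12 (0.01) and RBBP7 (0.12) did not pass. They belong to a list of 27 tested proteins with a known tie to 1 of the listed genes, of which 29.6% passed, against 22.5% of all genes: 1 (CDKN1C, above) rose and 7 fell, among them CDKN1A, the cell cycle inhibitor p21 (−0.32), and IGF2BP2, an RNA-binding protein (−0.31).

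NORAD, a cytoplasmic RNA that binds the Pumilio proteins, was the most abundant gene of the set. It measured 621, 597, 606 and 591 CPM in shControl replicates 1 to 4 and 575, 557, 591 and 569 CPM in shSmurf1 replicates 1 to 4. The groups met at 591 CPM, and the mean went from 604 ± 12.9 to 573 ± 14.3 CPM (SD, n = 4 each; log2 fold change −0.08 ± 0.043 SE, edgeR adjusted p = 0.230). Without shSmurf1 replicate 3 it passed, at −0.09 (edgeR adjusted p = 0.0388), and with the GC trend removed it was −0.02 (edgeR adjusted p = 0.719). Its longest transcript holds 15 copies of the Pumilio element TGTANATA, sought on the transcript strand, or 2.81 per kilobase. Only 3 of 15639 genes with a transcript had more, and 30.6% of genes had at least 1. PUM2, which encodes a Pumilio protein, did not pass (−0.07).

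OIP5-AS1, a cytoplasmic RNA that can bind the RNA-binding protein ELAVL1, measured 80.2, 80.3, 87.7 and 88.1 CPM in shControl replicates 1 to 4 and 67.2, 74.5, 84.8 and 67.0 CPM in shSmurf1 replicates 1 to 4. The shSmurf1 replicate 3 library lay among the controls and the other 3 lay below them. The log2 fold change was −0.20 ± 0.071 (SE; edgeR adjusted p = 0.0531) and −0.27 without replicate 3 (edgeR adjusted p = 0.000181). Its antisense partner OIP5 shares 470 bases with it and had a log2 fold change of −0.25 (edgeR adjusted p = 0.134). The remaining genes did not pass. PVT1, a neighbour of MYC, had a log2 fold change of −0.18 ± 0.096 (SE). CYTOR (−0.14) and CRNDE (−0.13) are both named for raised levels in cancers. The rows of LINC-PINT, a p53-induced transcript, were ENSG00000231721 (−0.09 ± 0.28 SE) and ENSG00000226380 (0.12 ± 0.30 SE), with errors too wide to place them near control. The LINC-PINT neighbourhood was lower, with a median of −0.22 over 20 genes for each row, and MKLN1, which overlaps 1 of the rows by 81 bases on the other strand, fell by 0.36.

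Levels can be compared between genes only per length of exon. On the scale of CPM per kilobase in shControl, NORAD stood first at 113, with its lowest library at 111 above the highest SNHG6 library at 37.6. SNHG6 (31.0), MIR31HG (26.0), MALAT1 (24.3) and GAS5 (22.2) followed without a gap between neighbours. GAS5 lay above TUG1 (17.5) beyond the spread, and from TUG1 through SNHG5 (15.1), NEAT1 (14.8), SNHG7 (13.8), ZFAS1 (13), MEG3 (11.3) and SNHG1 (10.6) to SNHG3 (9.87) no neighbours were apart. The next step down beyond the spread was from SNHG3 to SNHG8 (7.91). At the lower end, PVT1 (2.94), CRNDE (1.77), CYTOR (1.38) and HOTAIR (0.928) were apart from each other, while HOTAIR overlapped with FTX (0.775) below it. MIR17HG (0.726) lay above both LINC-PINT rows (0.309 and 0.233). These levels depend on the annotated exon length: NEAT1 has 22767 bases of exon and MIR31HG 745. That length includes bases shared with other genes, 40.7% of it in MIR31HG, where reads may not have been counted. They also leave out RNA that poly(A) selection missed, which limits the places of MALAT1 and NEAT1 in this order.

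**Figure D4:**
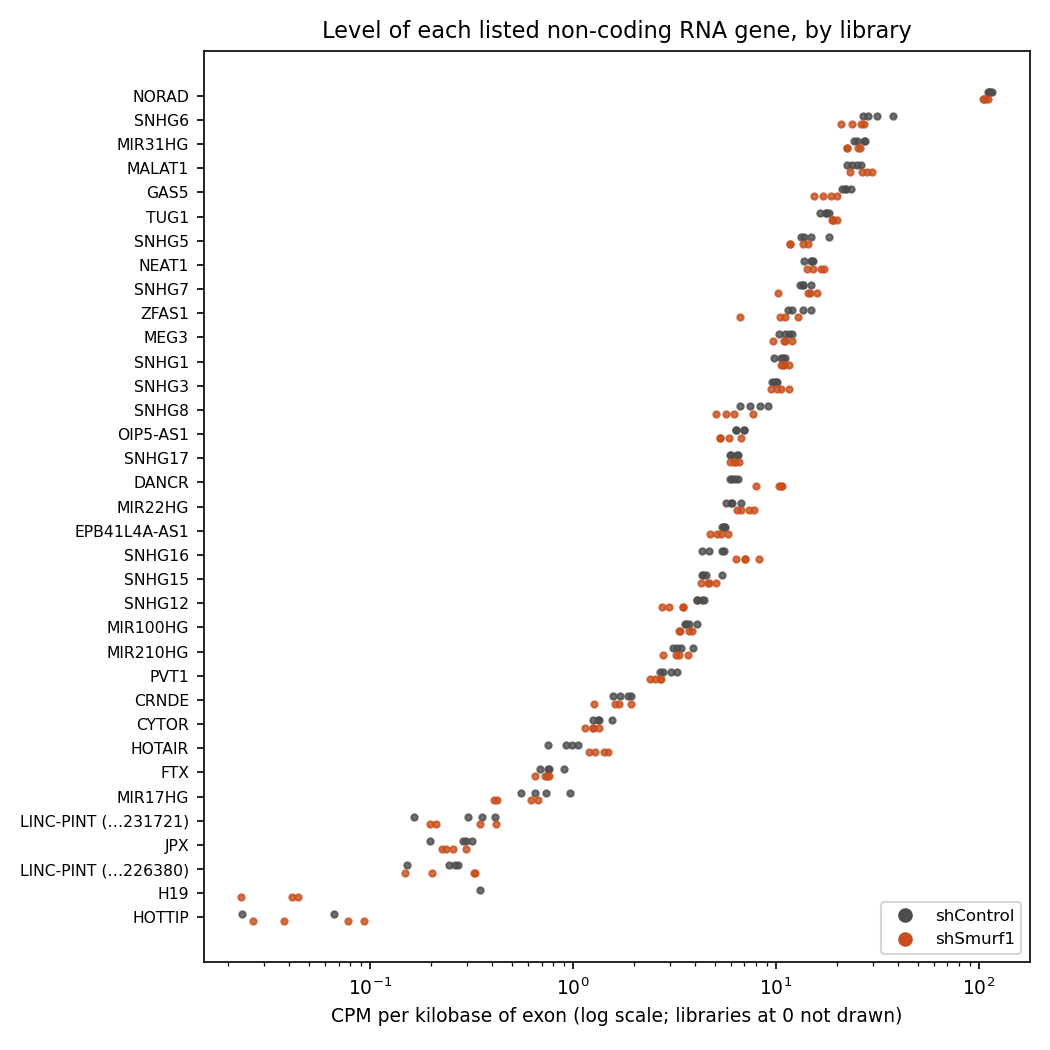
Level of each gene row in CPM per kilobase of exon on a log axis, with 1 point for each library (grey shControl, orange shSmurf1) and genes ordered by the shControl mean. Libraries at 0 are not drawn, so KCNQ1OT1 is left out. NORAD stands alone at the top with 113 in shControl, and only DANCR, SNHG16, TUG1, GAS5, SNHG12 and HOTAIR among tested rows have groups that do not overlap.

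Reads of overlapping genes limit some rows. The 24 snoRNA genes and 13 hairpin genes that overlap a host exon all had 0 counts, so reads in shared bases may be missing from both genes. A low value of a partner therefore does not show that its RNA is scarce in the shared stretch. Besides the pairs named above, SNHG7 shares 25.2% of its exons with FAM69B on the other strand (36.7 CPM, log2 fold change 0.12), ZFAS1 11.1% with ZNFX1 (131 CPM, 0.05), SNHG3 242 bases with RCC1 on the same strand (103 CPM, −0.09), MIR31HG 40.7% with the pseudogene IFNWP19 (8.28 CPM), EPB41L4A-AS1 49.6% with EPB41L4A (0.278 CPM), SNHG16 30.6% with AC015802.6 (0.243 CPM) and SNHG12 8 bases with TRNAU1AP (12.4 CPM). DANCR shares 271 bases with the pseudogene AC104066.1, which was at 0.0233 CPM. The partners with enough counts to be tested did not pass.

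The calls of DANCR, SNHG16, GAS5 and SNHG12 held in all 16 other settings tried. Their log2 fold changes ranged from 0.63 to 0.76 for DANCR, from 0.45 to 0.57 for SNHG16, from −0.37 to −0.25 for GAS5 and from −0.49 to −0.35 for SNHG12. Without shSmurf1 replicate 3, 5 listed rows were higher and 7 lower, of which MIR22HG, NEAT1, NORAD, OIP5-AS1, SNHG5 and ZFAS1 were added to the 6 named at the start, and the number of all genes called was 5348, against 3527 with it.

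**Figure D5:**
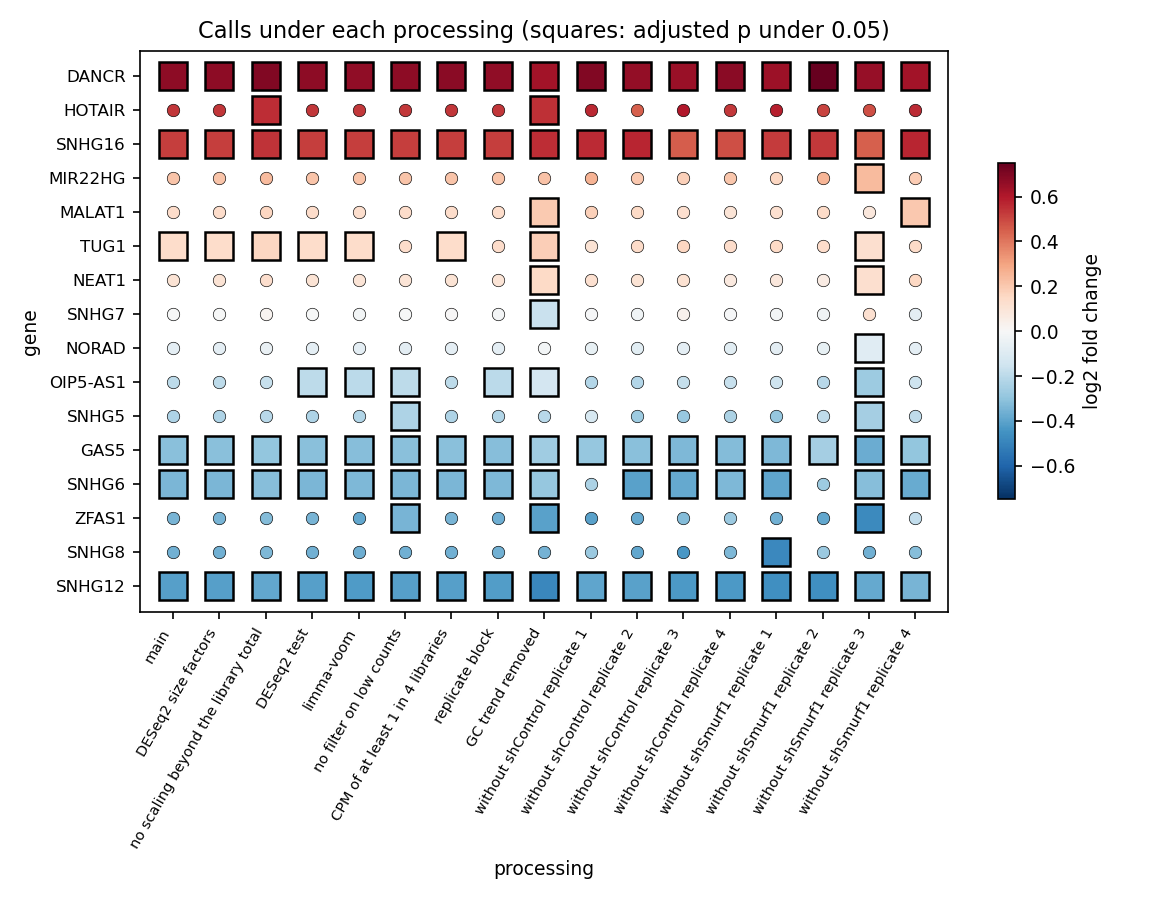
Log2 fold change (colour) and call (squares mark adjusted p under 0.05, circles the rest) of 16 listed genes under the main fit and 16 other settings. Only DANCR, SNHG16, GAS5 and SNHG12 are squares in every column, while OIP5-AS1 is a square in 6 of the 16 other settings and TUG1 in 7.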

How the data were processed

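Per the labels' protocols, libraries were made from poly(A)-selected RNA with random priming, and no strand-marking step is described. The authors deposited unnormalized whole-number read counts for each gene. CASAVA, fastp, HISAT2 2.0.5 and featureCounts 1.5.0-p3 are named in the submitters' processing notes, and the sources used here do not give the genome build, annotation or counting options. All 58735 identifiers were found in GENCODE release 29 (GRCh38), which supplied names, positions and exon lengths.

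Genes were kept by filterByExpr (minimum count 10), leaving 15647, scaled by TMM and tested with edgeR 4.0.16 in R 4.3.3 (quasi-likelihood F test, two-sided, no covariate), with Benjamini-Hochberg adjustment over all genes tested and a threshold of 0.05. CPM are counts per 1000000 of TMM-scaled library size. A standard error is the size of a log2 fold change over the square root of its F.

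The members and lists were chosen with earlier results of these data known. All 35 members are accounted for, and from each other list at most 3 changed genes per direction are named for size of change; other genes named were chosen after their values were seen. A few listed genes are not reported here. Alternatives were DESeq2 size factors, no scaling, DESeq2 1.42.0, limma-voom (limma 3.58.1), no filter, a filter at CPM 1 in 4 libraries, a replicate block, removal of each library's GC trend, and leaving out each library. Totals of 14688651 to 17030394 counts per library set the precision, and the members' counts are given with their values.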

Additional observations from a re-analysis of the deposited data

Results flagged for a closer look

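H19 in shControl had 1 library apart from the rest of its group: replicate 1 held 17 counts, or 1.01 CPM, and the other 3 held 0. KCNQ1OT1 in shSmurf1 was likewise present only in replicate 4, with 3 counts or 0.179 CPM, and at 0 in the other 3. Both genes lie in the same imprinted region of chromosome 11, and neither had enough counts to be tested. DANCR in shSmurf1 was lowest in replicate 2, at 18.2 CPM against 23.7 CPM in the next library, a gap of 0.877 of the range of the group. Without that library the log2 fold change of DANCR was 0.76, the highest value over all settings tried, and the gene stayed past the threshold (edgeR adjusted p = 1.02e-05). For DANCR the gap passes the 95% critical value of Dixon's test for 4 values, which chance alone passes in about 1 in 20 groups. For H19 and KCNQ1OT1, counts of 0 in 3 libraries make the gap equal to the range, so that rate does not describe them.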

How the results depend on the processing

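Over the 33 tested genes and 16 other settings, 476 of 528 values kept their direction and side of the threshold, 11 lost the call, 21 gained one and 20 changed sign, all of the last in genes past the threshold in neither setting. The 3 higher and 3 lower genes became 6 and 6 with the GC trend removed, and 2 higher and 6 lower with no filter on low counts. With the GC trend removed, 36.4% of the tested rows passed against 28.1% of all genes; with no filter, 22.2% of the 36 rows against 10.6% of 33093 genes. The lower snoRNA hosts, 3 in the main test, were 5 with the GC trend removed and 5 with no filter. The higher genes were 4 with no scaling and 2 with the replicate block. The lower genes were 4 with the block, with DESeq2 and with limma-voom. The share of all genes called was 22.7% with no scaling, 20.4% with the block, 22.7% with DESeq2 and 22.4% with limma-voom. For the listed rows it was 21.2%, 18.2%, 21.2% and 21.2% in that order. Leaving out 1 library gave 2 to 5 higher genes, 2 to 7 lower genes and 2 to 5 lower snoRNA hosts. The share of listed rows called then ranged from 12.1% to 36.4%, and that of all genes from 17.4% to 33.7%. The cause of these shifts was not tested.

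SNHG7 changed sign with no scaling (0.0202) and with a CPM filter (0.000154), and SNHG17 with the GC trend removed (−0.0107). With 1 library left out, log2 fold changes ranged from −0.0923 to 0.0124 for MEG3, −0.0768 to 0.119 for SNHG7, −0.0431 to 0.0831 for SNHG15, −0.0166 to 0.0321 for SNHG17, −0.0416 to 0.299 for the LINC-PINT row ENSG00000226380 and −0.301 to 0.0785 for ENSG00000231721. No pairing by replicate number was detected: deviations of same-numbered libraries correlated at 0.03, −0.01, −0.07 and 0.03. Those of differently numbered libraries correlated at −0.06 to 0.08. The labels do not say whether same-numbered cultures were handled together, and these values cannot show it. With the replicate number as a block, 3192 genes passed in all, TUG1 lost its call (edgeR adjusted p = 0.0678) and OIP5-AS1 gained one (0.0404). HOTAIR, MIR17HG and LINC-PINT, with 15 to 59 counts a library, had standard errors of 0.19 to 0.30 on the log2 scale, which limits the changes that could be called.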
